A study of Mus musculus with 11 samples.

Results

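Choroid plexus lies against the hippocampus along the floor of the lateral ventricle, and the hippocampal RNA libraries of this series differed widely in Ttr, the gene of transthyretin, the hormone and retinol carrier that choroid plexus epithelium secretes into cerebrospinal fluid. Of 11 libraries, 4 held over 300 CPM of Ttr (counts scaled to the library total) and are called Ttr-high, and 4 held under 30 CPM and are called Ttr-low. These 8 libraries were chosen by this measured value and are compared here. Ttr, as raw count over the library total, stood at 899, 839, 782 and 583 CPM in Ttr-high old replicate 2, old replicate 3, young replicate 2 and young replicate 4. It stood at 5.17, 13.2, 14.3 and 3.76 CPM in Ttr-low old replicate 1, old replicate 4, young replicate 3 and young replicate 5. The values nearest to the limits were 583 CPM inside and 223 CPM outside the upper limit (young replicate 6), and 14.3 CPM inside and 82.1 CPM outside the lower limit (old replicate 5). Ttr is left out of every count and list below.

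The study asked how imprinting and X inactivation hold up in the aged brain, using the total hippocampus of female F1 mice from reciprocal crosses between the inbred strains BL6 and CAST. The Ttr-high mice were old replicate 2 (101 weeks, BL6 mother), old replicate 3 (103 weeks, CAST mother), young replicate 2 (8 weeks, CAST mother) and young replicate 4 (9 weeks, BL6 mother). The Ttr-low mice were old replicate 1 (101 weeks, BL6 mother), old replicate 4 (103 weeks, CAST mother), young replicate 3 (9 weeks, BL6 mother) and young replicate 5 (9 weeks, CAST mother). Each side thus held 1 mouse of each combination of age and mother, and the father was of the other strain throughout. The 3 libraries between were old replicate 5 (104 weeks, BL6 mother), young replicate 1 (8 weeks, CAST mother) and young replicate 6 (9 weeks, BL6 mother). Each library came from 1 mouse, the tissue was homogenised whole and no cells were sorted. Within a side, per-library values are listed below in the order of replicates used here for Ttr.

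The labelled tissue was checked against 6 markers of hippocampal neurons, Prox1, Fibcd1, Wfs1, C1ql2, Grik4 and Bok. Their summed level ran from 459 to 894 CPM in Ttr-high libraries, against 383 to 890 CPM in Ttr-low libraries. All 6 were present in all 8 libraries and the sides overlapped. Depth ran from 129.4 to 190.5 M counts in Ttr-high libraries, against 131.7 to 214.8 M in Ttr-low libraries.

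A pair of the Ttr-high libraries stood apart for another reason. The summed level of 10 genes of striatal projection neurons was 281, 1159, 3449 and 243 CPM in Ttr-high libraries, against 210, 210, 188 and 187 CPM in Ttr-low libraries. The high values belonged to old replicate 3 and young replicate 2, both from CAST mothers. Young replicate 2 also had the highest sum of 10 oligodendrocyte genes, 5725 CPM, where the other Ttr-high libraries had 2656 to 3352 CPM and the Ttr-low libraries 2567 to 3032 CPM. Counts of called genes are therefore also given without old replicate 3 and young replicate 2, the striatum-rich pair. The part of striatal or white matter tissue in the results was not tested.

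The choroid plexus is a folded epithelium over leaky capillaries that hangs into the ventricles. Its cells pump ions and water from blood to make cerebrospinal fluid, seal the blood-cerebrospinal fluid barrier with tight junctions, and secrete carriers and growth factors. They arise from the roof plate of the embryonic brain, under transcription factors that include Otx2, Lmx1a and Msx1. They share genes of cilia with the ependymal cells that line the ventricle wall. In whole-tissue libraries, more cells of a type and more RNA per cell cannot be told apart.

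The Ttr-high libraries carried more RNA of 38 of 60 genes on a list of choroid plexus epithelium, among them transporters, secreted proteins, junction proteins and transcription factors. A gene was called higher when all 4 Ttr-high libraries lay above all 4 Ttr-low libraries and the mean log2(CPM + 0.25) differed by at least 1, and called lower in the mirror case. On this rule 130 genes were higher, 0.44% of the 29539 genes kept, and 0 were lower. With no minimum difference, 614 genes were higher (2.08%) and 230 lower (0.779%). The sides were split on Ttr, so these differences are given as a description, with a standard error (SE) from the spread within the sides and without a test. The median log2 difference over all genes kept was 0.02. All 60 members of the epithelium list were measured, of which 38 were called higher, 0 lower and 22 not called, and 57 had a difference above 0, with a list median of 1.64. Without the striatum-rich pair of libraries, 105 genes were higher (0.355% of genes kept), 91 of the 130 stayed called, 35 of the 38 list members stayed called and the list median was 1.55. A gene without overlap keeps this when libraries are left out, apart from a change in scaling. Here and below, whether a gene stayed called thus depended mainly on the difference of at least 1. The 38 called members differed by 1.01 to 5.32 on the log2 scale, with a median of 2.28.

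**Figure D1:**
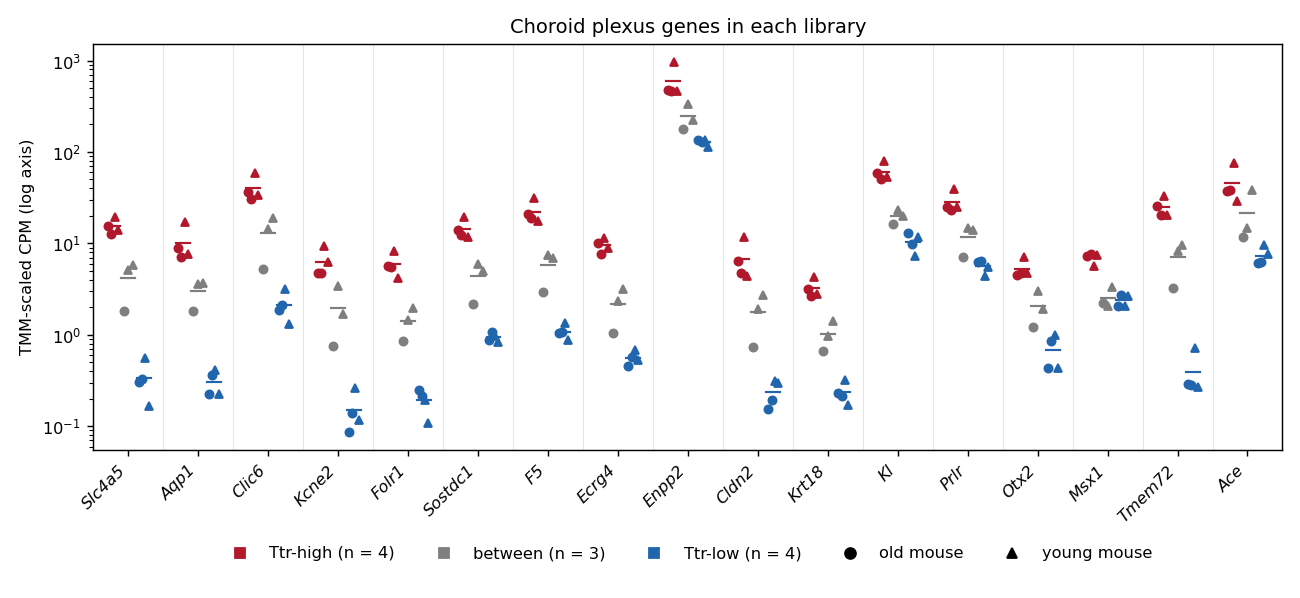
Level of 17 members of the choroid plexus epithelium list in TMM-scaled CPM on a log axis, 1 point per library, for 4 Ttr-high, 3 intermediate and 4 Ttr-low libraries, with circles for old and triangles for young mice and bars for the arithmetic mean of each set. The Ttr-high points lie above the Ttr-low points for each gene shown, and Ttr-high young replicate 2 is the top point for most.

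Genes of ion, water and solute transport, the machinery of fluid secretion, had 11 of 33 measured members called higher, 0 lower, and a list median of 0.32. Slc4a5, a sodium bicarbonate cotransporter of the apical membrane (chromosome 6, 83219828 to 83304945 in GRCm38), had 15.7, 12.6, 19.5 and 14.0 CPM in Ttr-high libraries, against 0.304, 0.326, 0.562 and 0.168 CPM in Ttr-low libraries. It was 27.0-fold higher on the log2(CPM + 0.25) scale, with a log2 difference of 4.75 (SE 0.24). Aqp1, the water channel of the same membrane (chromosome 6, 55336432 to 55348555), had 9.00, 7.16, 17.0 and 7.68 CPM in Ttr-high libraries, against 0.223, 0.363, 0.411 and 0.227 CPM in Ttr-low libraries. The sides were far apart for both genes, and Aqp1 differed by 4.16 (SE 0.30). Clic6, a chloride channel-like protein, had 36.4, 30.2, 59.2 and 34.0 CPM in Ttr-high libraries, against 1.89, 2.11, 3.19 and 1.33 CPM in Ttr-low libraries, a difference of 4.09 (SE 0.31). Kcne2, an accessory subunit of potassium channels, had 4.79, 4.73, 9.47 and 6.31 CPM in Ttr-high libraries, against 0.0869, 0.141, 0.260 and 0.118 CPM in Ttr-low libraries, a difference of 4.00 (SE 0.26). Folr1, the receptor that carries folate into cerebrospinal fluid and the second marker of the tissue beside Ttr, had 5.72, 5.48, 8.23 and 4.19 CPM in Ttr-high libraries, against 0.248, 0.215, 0.195 and 0.109 CPM in Ttr-low libraries, a difference of 3.77 (SE 0.22).

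Smaller differences in the same class were those of the cation channel Trpv4 (2.82, SE 0.15), the lipid transporter Abca4 (2.38, SE 0.20) and the potassium channel Kcnj13 (1.79, SE 0.28). The sulfate transporter Slc13a4 (1.64, SE 0.68), the lactate transporter Slc16a8 (1.46, SE 0.24) and the anion exchanger Slc4a2 (1.02, SE 0.17) were called as well. Slc4a2 lost its call without the striatum-rich pair, at 0.89. Of the 11 called transport genes 10 stayed called without that pair. The members not called included transporters that many brain cells use. Slc12a2, the sodium-potassium-chloride cotransporter, had 114, 94.9, 204 and 131 CPM in Ttr-high libraries, against 118, 103, 119 and 105 CPM in Ttr-low libraries. Atp1b1, a subunit of the sodium pump, had 1232, 948, 1189 and 1414 CPM in Ttr-high libraries, against 1499, 1200, 1172 and 1509 CPM in Ttr-low libraries. For both genes the sides overlapped.

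Secreted proteins had 6 of 22 measured members called higher, 0 lower, and a list median of 0.34. F5, coagulation factor V, had 21.2, 18.8, 31.4 and 17.4 CPM in Ttr-high libraries, against 1.04, 1.07, 1.36 and 0.879 CPM in Ttr-low libraries, a log2 difference of 4.04 (SE 0.22). Sostdc1, a secreted antagonist of bone morphogenetic protein and Wnt signalling, had 14.1, 12.2, 19.5 and 11.9 CPM in Ttr-high libraries, against 0.875, 1.08, 0.966 and 0.844 CPM in Ttr-low libraries, a difference of 3.60 (SE 0.17). Ecrg4, a secreted peptide precursor, differed by 3.59 (SE 0.14). Enpp2, the enzyme autotaxin that makes lysophosphatidic acid, is also a gene of oligodendrocytes. It had 481, 468, 953 and 468 CPM in Ttr-high libraries, against 137, 128, 136 and 113 CPM in Ttr-low libraries, a difference of 2.13 (SE 0.26). Its highest value was in young replicate 2, the library richest in oligodendrocyte genes. The sulfatase Sulf1 (2.04, SE 0.26) and the lipopolysaccharide-binding protein Lbp (1.94, SE 0.10) complete the called members, and all 6 stayed called without the striatum-rich pair.

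Igf2, the growth factor made by choroid plexus and by meningeal fibroblasts, was not called because of 1 library. It had 98.9, 63.9, 129 and 78.8 CPM in Ttr-high libraries, against 19.9, 21.2, 36.9 and 85.9 CPM in Ttr-low libraries. Ttr-low young replicate 5, at 85.9 CPM, lay inside the Ttr-high range, and the difference was 1.39 (SE 0.53). The same library had the highest sum of 7 fibroblast markers, 112 CPM, where Ttr-high libraries had 25.5 to 76.6 CPM. The part of fibroblasts in its Igf2 level was not tested. Igfbp2, an Igf2 binding protein, had no overlap and a difference of 0.97 (SE 0.21), just under the limit of 1.

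Junction and keratin genes, which seal and stiffen an epithelium, had 8 of 21 measured members called higher, 0 lower, and a list median of 0.32. Cldn2, the claudin of leaky epithelia (chromosome X, 139800828 to 139811386), had 6.40, 4.79, 11.7 and 4.35 CPM in Ttr-high libraries, against 0.155, 0.193, 0.310 and 0.296 CPM in Ttr-low libraries, a log2 difference of 3.76 (SE 0.33). The keratins Krt18 (2.83, SE 0.17) and Krt8 (4.59-fold higher), which pair into the filaments of simple epithelia, and the claudin Cldn1 (1.93, SE 0.35) followed. Paracingulin, Cgnl1 (1.14, SE 0.38), the polarity protein Crb3 (1.03, SE 0.24) and Perp, a protein of desmosomes (1.01, SE 0.28), lost the call without the striatum-rich pair, at 0.97, 0.97 and 0.91, so 5 of the 8 stayed called.

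Among 15 measured receptors, 2 were called higher, also without the striatum-rich pair, and 0 lower, with a list median of 0.06. Kl, the ageing-related protein klotho (chromosome 5, 150952607 to 150993817), had 58.3, 50.9, 79.6 and 52.8 CPM in Ttr-high libraries, against 12.9, 9.87, 7.38 and 11.8 CPM in Ttr-low libraries, a difference of 2.51 (SE 0.23). Prlr, the prolactin receptor, had 25.2, 23.4, 39.3 and 25.2 CPM in Ttr-high libraries, against 6.25, 6.50, 4.40 and 5.58 CPM in Ttr-low libraries, a difference of 2.25 (SE 0.21). Both genes kept several CPM in Ttr-low libraries, where Slc4a5, Kcne2 and Folr1 were below 1 CPM. Htr2c, the serotonin receptor 2C, had 19.8, 41.9, 40.0 and 26.3 CPM in Ttr-high libraries, against 19.7, 12.4, 30.2 and 13.1 CPM in Ttr-low libraries, and the sides overlapped.

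Transcription factors of roof plate and choroid plexus had 3 of 17 measured members called higher, also without the striatum-rich pair, 0 lower, and a list median of 0.26. Otx2, a homeobox factor needed to form and maintain the choroid plexus, had 4.51, 4.80, 7.17 and 4.71 CPM in Ttr-high libraries, against 0.434, 0.867, 1.00 and 0.430 CPM in Ttr-low libraries, a log2 difference of 2.60 (SE 0.28). Lmx1a differed by 1.75 (SE 0.13) and Msx1 by 1.47 (SE 0.14). Msx1 had 7.27, 7.60, 5.70 and 7.56 CPM in Ttr-high libraries, against 2.05, 2.73, 2.06 and 2.66 CPM in Ttr-low libraries. Foxj1, the master factor of motile cilia, had no overlap and a difference of 0.88 (SE 0.19).

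The largest difference of any gene was that of Tmem72, a membrane protein of kidney and choroid plexus (chromosome 6, 116679063 to 116716913). It had 25.8, 20.6, 32.8 and 20.4 CPM in Ttr-high libraries, against 0.292, 0.282, 0.714 and 0.271 CPM in Ttr-low libraries, a difference of 5.32 (SE 0.27). Ace, the angiotensin-converting enzyme, had 37.2, 38.4, 76.1 and 29.4 CPM in Ttr-high libraries, against 6.05, 6.25, 9.52 and 7.63 CPM in Ttr-low libraries, a difference of 2.51 (SE 0.33). Ace is also a gene of striatal neurons. Its value in the striatum-rich library between the sides, young replicate 6, was 38.2 CPM, and its difference without the striatum-rich pair was 2.15. The short-chain collagens Col8a1 (3.33, SE 0.29) and Col8a2 (2.21, SE 0.11), found in basement membranes, were also called.

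Per length, the highest of the 38 called members in Ttr-high libraries was Enpp2, at a mean of 222 TPM, the length-scaled unit the authors deposited. Ecrg4 and Clic6 followed at means of 22.2 and 21.9 TPM, and Ace and Sostdc1 had 18.8 and 17.2 TPM. The median of the 38 was 5.15 TPM and the lowest, Lmx1a, had 0.633 TPM.

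The 22 measured members of the epithelium list that were not called had a median difference of 0.37, and 7 of them had no overlap between the sides. Trpm3, a cation channel whose gene hosts a microRNA, had 209, 177, 197 and 194 CPM in Ttr-high libraries, against 135, 130, 131 and 161 CPM in Ttr-low libraries. It had no overlap but a difference of only 0.48 (SE 0.09). Carbonic anhydrase 12 (Car12, 0.10, SE 0.34) and the bicarbonate transporter Slc4a10 (-0.22, SE 0.19) overlapped between the sides.

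**Figure D2:**
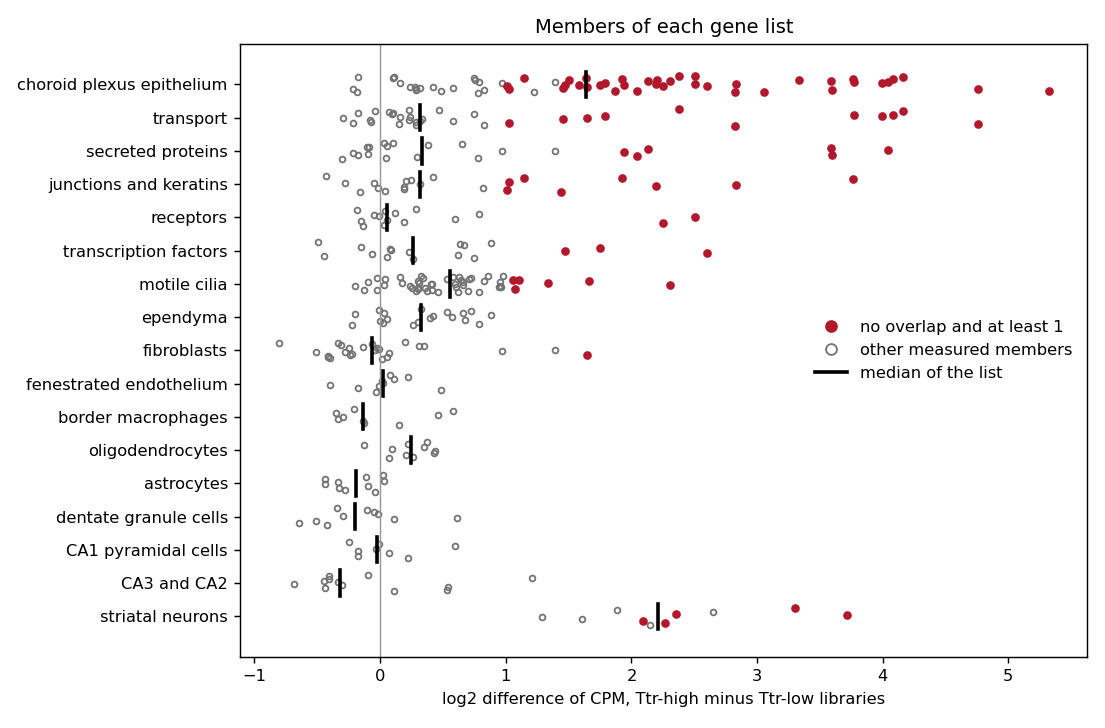
Log2 difference of CPM, Ttr-high minus Ttr-low libraries, for the measured members of 17 gene lists, with filled points for members called higher, open points for the others and a black bar for the median of the list. The median was 1.64 for choroid plexus epithelium, 0.55 for motile cilia, -0.07 for fibroblasts and 2.21 for striatal neurons.

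RefSeq promoter windows of GRCm38.p6, from 250 bases before to 50 after a start site, were matched by symbol for 81 of the 130 genes called higher and 31 of the 38 epithelium members. A pair of short motifs was searched on both strands, the core of Otx2 binding sites (TAATCC, or GGATTA on the other strand) and a core of the sites of RFX factors, which switch on ciliary genes (GTTGCC, or GGCAAC). Some genes have several windows. The Otx2 core was present in 10.3% of the 39 windows of epithelium members, in 9% of the 100 windows of genes called higher and in 7.06% of all 32851 windows. The RFX core was present in 15.4%, 18% and 12.5% of the same sets. A match is a description of the letters and not a binding site. The windows of 4 epithelium members with a match are shown, 5′ to 3′ on the strand of the gene with the match in capitals, for Aqp1 (chr6:55336049-55336348, plus strand), Kcne2 (chr16:92292139-92292438, plus strand), Ace (chr11:105967698-105967997, plus strand) and Abca4 (chr3:122044210-122044509, plus strand).
Aqp1: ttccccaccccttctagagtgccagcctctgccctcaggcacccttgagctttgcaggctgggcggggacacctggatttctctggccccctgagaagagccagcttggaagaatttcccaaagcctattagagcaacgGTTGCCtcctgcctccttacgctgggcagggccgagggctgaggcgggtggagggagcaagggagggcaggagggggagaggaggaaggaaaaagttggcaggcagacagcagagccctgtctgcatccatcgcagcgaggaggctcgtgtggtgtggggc
Kcne2: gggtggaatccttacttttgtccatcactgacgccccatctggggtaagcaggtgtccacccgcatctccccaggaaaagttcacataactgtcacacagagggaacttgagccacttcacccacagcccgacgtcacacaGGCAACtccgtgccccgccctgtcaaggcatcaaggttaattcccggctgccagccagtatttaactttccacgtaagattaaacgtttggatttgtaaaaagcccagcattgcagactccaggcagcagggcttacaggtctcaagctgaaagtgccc
Ace: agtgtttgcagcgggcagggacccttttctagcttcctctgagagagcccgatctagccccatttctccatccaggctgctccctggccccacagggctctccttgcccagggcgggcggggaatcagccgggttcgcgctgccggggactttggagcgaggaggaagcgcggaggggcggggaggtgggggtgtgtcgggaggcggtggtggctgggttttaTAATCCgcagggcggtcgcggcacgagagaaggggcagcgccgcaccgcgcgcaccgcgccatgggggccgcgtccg
Abca4: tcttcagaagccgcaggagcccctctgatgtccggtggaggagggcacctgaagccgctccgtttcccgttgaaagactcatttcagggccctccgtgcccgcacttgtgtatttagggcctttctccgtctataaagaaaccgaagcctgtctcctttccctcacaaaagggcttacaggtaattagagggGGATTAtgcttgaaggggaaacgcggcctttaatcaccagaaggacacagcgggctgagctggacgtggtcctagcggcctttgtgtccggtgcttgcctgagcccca
The RFX core began at base -111 from the start site in Aqp1 and at base -109 in Kcne2. The Otx2 core began at base -27 in Ace and at base -58 in Abca4.

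Motile cilia genes moved by smaller amounts. Of 50 measured members, 6 were called higher, 0 lower, and 23 had no overlap with higher Ttr-high values, where 2.08% of all genes kept had no overlap in that direction. The list median was 0.55. The summed level of the list was 337, 305, 307 and 293 CPM in Ttr-high libraries, against 277, 220, 210 and 220 CPM in Ttr-low libraries, with no overlap. Ttr-low old replicate 1 came closest to the Ttr-high side. Drc7, a subunit of the axonemal regulatory complex that is also on the epithelium list, had 9.53, 7.22, 12.4 and 7.63 CPM in Ttr-high libraries, against 2.64, 1.33, 1.52 and 1.25 CPM in Ttr-low libraries, a log2 difference of 2.31 (SE 0.28). Cfap65, a protein of the sperm and ciliary axoneme, differed by 1.66 (SE 0.21), and Dnah6, an axonemal dynein heavy chain, by 1.34 (SE 0.23). Without the striatum-rich pair 5 of the 6 stayed called.

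Ependymal cells carry motile cilia, and 0 of 19 measured ependymal genes were called higher, with a list median of 0.32. Over all genes kept, 0.44% were called higher, so 0 calls in this list are near that share. The summed level of the ependymal markers Ccdc153, Tmem212, Rarres2 and Foxj1 was 35.4 to 38.5 CPM in Ttr-high libraries, against 22.4 to 37.8 CPM in Ttr-low libraries. Of the 19 members 16 had a difference above 0, and 6 had no overlap with higher Ttr-high values, where this was so for 2.08% of all genes kept. Foxj1 had 13.6, 14.5, 13.2 and 13.03 CPM in Ttr-high libraries, against 10.1, 7.69, 5.46 and 6.46 CPM in Ttr-low libraries, with no overlap. Rarres2 had 16.9, 15.2, 19.7 and 17.3 CPM in Ttr-high libraries, against 20.2, 14.9, 15.2 and 19.1 CPM in Ttr-low libraries, with overlap. For the sum of the 4 markers, only Ttr-low old replicate 1 lay inside the Ttr-high range.

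Genes of the stroma and vessels of choroid plexus were mostly not called, where 0.44% of all genes kept were called higher and 0 lower. At that share most short lists would hold 0 called members, so 0 calls say little about these cells. Fibroblast genes had 1 of 25 measured members called higher, the transporter Slc13a4 that also stands on the epithelium list, and a median of -0.07. The sum of the 7 fibroblast markers Col1a1, Col1a2, Col3a1, Dcn, Lum, Slc6a13 and Aldh1a2 was 25.5 to 76.6 CPM in Ttr-high libraries, against 23.0 to 112 CPM in Ttr-low libraries. Fenestrated endothelium had 0 of 10 members called and a median of 0.02. Its marker Plvap, the diaphragm protein of fenestrae, had 6.89, 7.51, 3.44 and 6.11 CPM in Ttr-high libraries, against 3.93, 6.38, 3.60 and 2.91 CPM in Ttr-low libraries. Macrophages of the brain borders had 0 of 9 members called and a median of -0.14. The sides overlapped for the summed level of each of these lists.

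Neuronal lists of the labelled tissue had 0 members called in either direction, with medians of -0.20 for dentate granule cells, -0.02 for CA1 and -0.32 for CA3 and CA2. Astrocytes, oligodendrocytes, microglia and blood-brain barrier endothelium also had 0 members called, with medians of -0.20, 0.24, 0.05 and 0.18. With 0.44% of all genes kept called higher and 0 lower, 0 calls in these short lists are near the share of all genes. The striatal list was the exception among tissue lists, with 5 of 10 members called higher and a median of 2.21, which was 0.57 without the striatum-rich pair, when 2 of the 5 stayed called.

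The genes called higher differed in their spread within the Ttr-high libraries. Of the 130 genes, 109 are protein coding, 40 stand on a choroid plexus list, 6 on the motile cilia list, 5 on the striatal list and 79 on none of the lists, and a gene may stand on several lists. The highest Ttr-high library exceeded the lowest by 1.21 to 2.69 times in the 38 epithelium members, with a median of 1.67, and by 1.43 times for Ttr. In the 5 striatal members, among them Adora2a, Gpr6, Ppp1r1b and Rgs9, that ratio was 13.5 to 45.4. Ppp1r1b, a dopamine-regulated phosphatase inhibitor of striatal neurons, had 107, 385, 1256 and 92.7 CPM in Ttr-high libraries, against 73.7, 65.9, 55.9 and 52.5 CPM in Ttr-low libraries. Its sides did not overlap, yet old replicate 3 and young replicate 2 held most of its Ttr-high level. Of the 130 genes, 25 had a ratio over 4, and 24 of these were highest in old replicate 3 or young replicate 2.

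Of the 79 genes on no list, 59 had a ratio of at most 4, and 48 of the 79 stayed called without the striatum-rich pair. The following genes were chosen after their values were seen. Col9a3, a chain of type IX collagen, had 28.5, 28.0, 35.3 and 27.1 CPM in Ttr-high libraries, against 6.84, 8.71, 10.1 and 7.37 CPM in Ttr-low libraries, a log2 difference of 1.83 (SE 0.15). The basement membrane chains Col4a3 (1.41, SE 0.21) and Col4a4 (1.23, SE 0.24), Frem1 of the Fraser complex (1.21, SE 0.04) and the protease inhibitor Spint2 (1.25, SE 0.12) were called as well. Wfdc2, a secreted protein of epithelia, had 0.880, 0.983, 0.751 and 0.740 CPM in Ttr-high libraries, against 0.0434, 0.0667, 0.0505 and 0.0889 CPM in Ttr-low libraries. Otx2os1 (1.78, SE 0.19), a noncoding gene that overlaps Otx2, was also called. The strand setting of the counting is not given in the sources used here, and counts of overlapping or antisense genes cannot be told apart.

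**Figure D3:**
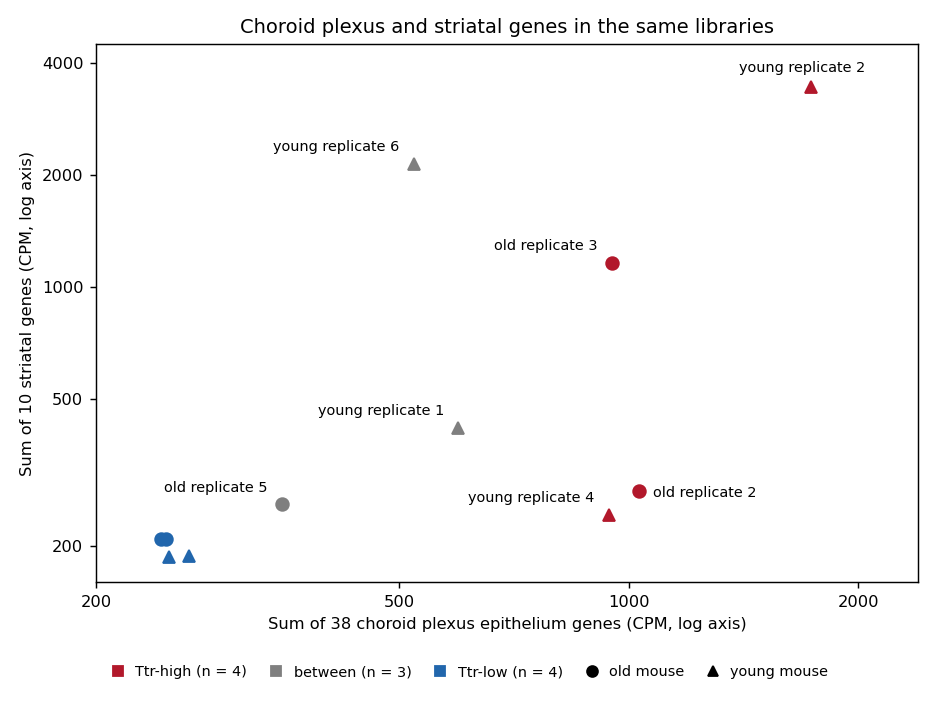
Summed CPM of the 38 called choroid plexus epithelium genes (x axis, log) and of 10 striatal genes (y axis, log) in each of the 11 libraries, coloured by side, with circles for old and triangles for young mice. Ttr-high old replicate 2 and young replicate 4 have 1032 and 942 CPM of epithelium genes with striatal sums of 281 and 243 CPM, and the 4 Ttr-low libraries cluster at 243 to 265 CPM of epithelium genes.

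Among the Ttr-high libraries, the order of epithelium genes was not the order of Ttr. Ttr was highest in old replicate 2, whereas 31 of the 38 epithelium members were highest in young replicate 2, where 29.3% of all genes kept were highest in that library. The sum of the 38 members was 1032, 951, 1736 and 942 CPM in Ttr-high libraries, against 247, 243, 265 and 249 CPM in Ttr-low libraries. Without Enpp2 the sum was 551, 483, 784 and 474 CPM in Ttr-high libraries, against 111, 115, 129 and 136 CPM in Ttr-low libraries. Young replicate 2 was highest on both sums, and it is also the library richest in striatal and oligodendrocyte genes.

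The 3 libraries between were not used to choose the sides. For 26 of the 38 epithelium members all 3 lay between the highest Ttr-low and the lowest Ttr-high library. This was so for 44 of the 130 genes called higher and for 51, or 0.173%, of all genes kept. Only the 614 genes with no overlap and higher Ttr-high values could meet this, and the 130 were called for such a gap. The share over all genes is therefore low by construction. A position was computed for each gene, with 0% at the Ttr-low mean and 100% at the Ttr-high mean. Ttr stood at 10.4% in old replicate 5, 20.7% in young replicate 1 and 26.8% in young replicate 6. The 38 members had median positions of 9.77%, 31.1% and 34.9% in these libraries, with ranges of -26.8% to 32.6%, -6.50% to 62.2% and 19.2% to 81.4%. The medians follow the order of Ttr. All 3 libraries did so in 20 of the 38 members, in 78 of the 130 genes called higher and in 20.2% of all genes kept. The order was also that of all 10 measured striatal genes, so it was not particular to the epithelium list. The 5 called striatal members had median positions of 5.99%, 18.5% and 179%, so young replicate 6 lay above the Ttr-high mean for them.

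**Figure D4:**
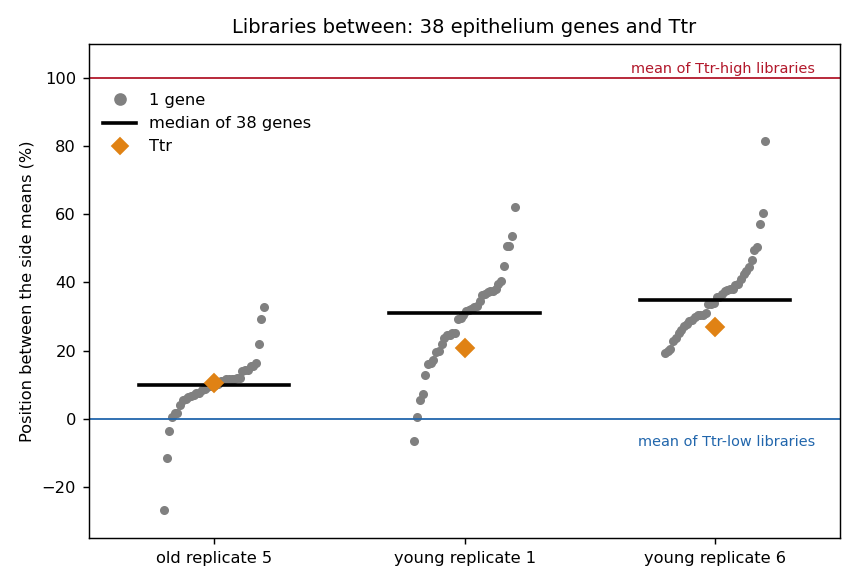
Position of the 3 libraries between, in percent of the way from the Ttr-low mean (0%) to the Ttr-high mean (100%), for each of the 38 called epithelium genes (grey points, sorted), their median (bar) and Ttr (diamond). The medians are 9.77% in old replicate 5, 31.1% in young replicate 1 and 34.9% in young replicate 6.

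Age was not used to choose the sides, and each side held 2 old and 2 young mice, so old and young libraries were tested with the side and the mother as terms. None of the 130 genes called higher and none of the 60 epithelium members passed an adjusted p of 0.05 (edgeR quasi-likelihood test, Benjamini-Hochberg adjustment over 31040 genes). Over all genes 8 rose and 3 fell with age, 0.0258% and 0.00966% of those tested and 0.0354% together. At an unadjusted p under 0.05 there were 14 of the 130 genes, 12 of the 60 epithelium members and 9.22% of all genes tested. DESeq2 called 5 genes of the combined set, where it called 364 over all genes. The median age difference of the epithelium list was -0.18, with 17 of 60 members above 0, where the median of all genes was 0.01. The labels do not say whether the mice came from separate litters, so p-values measure the spread between these mice.

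The nearest to the threshold on the choroid plexus lists was Tfrc, the transferrin receptor, which capillaries also express. It had 64.7 and 45.0 CPM in old and 94.5 and 118 CPM in young Ttr-high libraries, and 80.4 and 43.3 CPM in old and 127 and 108 CPM in young Ttr-low libraries. Its log2 difference, old minus young, was -0.97 (SE 0.14, edgeR adjusted p = 0.0763), with all 4 old libraries below all 4 young ones. Over its alternatives the adjusted p of Tfrc ran from 1e-05 in DESeq2 to 0.41 without old replicate 4. Cldn1 had 2.21 and 1.58 CPM in old and 4.25 and 3.11 CPM in young Ttr-high libraries, and 0.323 and 0.378 CPM in old and 0.620 and 0.790 CPM in young Ttr-low libraries. Its difference was -0.97 (SE 0.23, edgeR adjusted p = 0.277), and the old mouse was lower within each side. Slc39a4, a zinc importer on the epithelium list that was not higher in Ttr-high libraries, differed by 1.26 (SE 0.30, edgeR adjusted p = 0.277). Kl, known for its decline in ageing, differed by 0.01 (SE 0.21, edgeR adjusted p = 0.99), with 58.3 and 50.9 CPM in old and 79.6 and 52.8 CPM in young Ttr-high libraries. On the Ttr-low side Kl had 12.9 and 9.87 CPM in old and 7.38 and 11.8 CPM in young mice. The old mean was lower in Ttr-high libraries (54.6 against 66.2 CPM) and higher in Ttr-low libraries (11.4 against 9.57 CPM). Otx2 (-0.26, SE 0.30), Folr1 (0.19, SE 0.30), Aqp1 (-0.38, SE 0.30) and Prlr (-0.01, SE 0.19) did not pass the test (edgeR quasi-likelihood test), which does not show that their levels were equal.

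Whether the age difference itself depended on the side was tested by an interaction term, and 0 of 31040 genes passed (edgeR quasi-likelihood test, 363 genes, 1.17%, at an unadjusted p under 0.05 and 3 calls in DESeq2). On simulated data this test recovered 0% of 1.5-fold, 3% of 2-fold and 27.3% of 4-fold changes. The 0 calls therefore do not show that the age differences of the sides were equal. The smallest p among the choroid plexus genes was that of Ptgds, prostaglandin D2 synthase, which meningeal cells also make. It had 87.7 and 101 CPM in old and 88.4 and 94.3 CPM in young Ttr-high libraries, and 60.8 and 57.3 CPM in old and 182 and 213 CPM in young Ttr-low libraries (interaction 1.82, SE 0.28, edgeR adjusted p = 1). Slc13a4 showed the same layout, with 12.8 and 10.8 CPM in old and 17.5 and 11.7 CPM in young Ttr-high libraries, and 1.64 and 1.73 CPM in old and 7.75 and 10.5 CPM in young Ttr-low libraries (edgeR adjusted p = 1). Slc13a4 is also a fibroblast gene. The fibroblast marker Aldh1a2 had 1.66 and 2.52 CPM in old and 1.72 and 2.45 CPM in young Ttr-high libraries, and 2.26 and 1.96 CPM in old and 4.99 and 8.78 CPM in young Ttr-low libraries. Aldh1a2 was picked after its values were seen. Slc6a13 had a similar layout, whereas Col1a1 and Lum did not. Col1a1 had 5.36 and 8.55 CPM in old and 12.8 and 31.5 CPM in young Ttr-high libraries. On the Ttr-low side, Col1a1 had 3.62 and 5.72 CPM in old and 12.0 and 27.2 CPM in young mice. Lum had 6.04 and 4.40 CPM in old and 2.36 and 5.03 CPM in young Ttr-low libraries. The part of fibroblasts in the differences of Ptgds and Slc13a4 was not tested.

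The allelic counts give a readout that the choice of libraries did not use, the share of allele-assigned reads that come from the BL6 copy within a library. In Ttr-high libraries the BL6 and CAST copies differed in 28 of 56 tested epithelium members, 15 with the BL6 copy higher and 13 with the CAST copy higher (edgeR quasi-likelihood test over 24755 autosomal genes, adjusted p under 0.05). Over all genes tested 30.6% were higher from the BL6 copy and 17.6% from the CAST copy, 48.2% in either direction, so the share among the epithelium members is near that of all genes. Ocln, the tight junction protein occludin from the junction list, had BL6 shares of 63.4%, 63.7%, 60.8% and 67.9% in Ttr-high libraries, against 68.8%, 64.8%, 64.0% and 63.8% in Ttr-low libraries (log2 BL6 over CAST in Ttr-high 0.83, SE 0.07, edgeR adjusted p = 7.33e-08). The shares of the sides overlapped.

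For a small set of genes the BL6 over CAST ratio was called different between the sides, not always with separate shares. The term for BL6 allele by side passed in 18 of 24755 genes, 0.0727% of those tested. In Ttr-high libraries 5 had a higher (0.0202%) and 13 a lower ratio (0.0525%). Of 122 tested genes called higher, 10 passed, 8.20%, among them Sostdc1, Col9a3, Kl, Col8a2, Sod3, Slc24a1, Col4a3, A2m and Col4a4. In 15 of the 18 genes the shares of the sides did not overlap. In 41 of 54 values of the libraries between, the share lay between the side means. The 18 genes were picked by a test between these same sides, so the lack of overlap partly restates that choice. Neither count was made over all genes tested.

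Sostdc1 had BL6 shares of 29.7%, 28.9%, 28.4% and 31.6% in Ttr-high libraries, from 1194 to 2436 allelic reads, against 83.2%, 76.0%, 52.2% and 85.0% in Ttr-low libraries, from 90 to 120 reads. The CAST copy thus gave most reads on the Ttr-high side and the BL6 copy most reads on the Ttr-low side, and the log2 difference of the BL6 over CAST ratio was -2.86 (SE 0.26, edgeR adjusted p = 9.15e-05). The libraries between had 46.6%, 39.3% and 33.0% in old replicate 5, young replicate 1 and young replicate 6, all between the sides. Kl had 60.7%, 58.3%, 57.7% and 59.4% in Ttr-high libraries, against 83.5%, 84.7%, 64.1% and 81.5% in Ttr-low libraries (-1.44, SE 0.17, edgeR adjusted p = 0.00212). Ttr-low young replicate 3 was the Kl value closest to the Ttr-high side, and it was the lowest Ttr-low value of Sostdc1 as well.

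Sod3, extracellular superoxide dismutase, had BL6 shares of 44.5%, 46.7%, 40.7% and 46.3% in Ttr-high libraries, against 69.9%, 67.0%, 58.6% and 56.7% in Ttr-low libraries (-1.09, SE 0.15, edgeR adjusted p = 0.00469). Slc24a1, a sodium-calcium-potassium exchanger of photoreceptors, had 18.7%, 17.4%, 22.0% and 19.05% in Ttr-high libraries, against 52.9%, 45.7%, 63.3% and 43.2% in Ttr-low libraries (-2.14, SE 0.29, edgeR adjusted p = 0.00531). A2m, the protease inhibitor alpha-2-macroglobulin, went the other way, with 43.7%, 41.7%, 40.1% and 40.6% in Ttr-high libraries, against 27.0%, 32.9%, 30.8% and 24.7% in Ttr-low libraries (0.84, SE 0.13, edgeR adjusted p = 0.0158).

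The 10 also held 4 collagen genes, which were put together after the calls were seen. Col9a3 had BL6 shares of 59.3%, 59.8%, 57.7% and 58.8% in Ttr-high libraries, against 72.9%, 70.4%, 69.9% and 71.8% in Ttr-low libraries (-0.79, SE 0.09, edgeR adjusted p = 0.000956). The Ttr-low values lay between 69.9% and 72.9%, a narrow range. Col8a2 had 50.8%, 51.8%, 50.1% and 52.1% in Ttr-high libraries, against 32.6%, 19.6%, 26.6% and 36.2% in Ttr-low libraries (1.33, SE 0.18, edgeR adjusted p = 0.00469). Col4a3 had 47.4%, 47.3%, 56.2% and 38.3% in Ttr-high libraries, against 21.6%, 15%, 19.6% and 26.7% in Ttr-low libraries (1.77, SE 0.25, edgeR adjusted p = 0.00838). Col4a4 had 36.6%, 34.6%, 39.6% and 25.1% in Ttr-high libraries, against 17.9%, 17.5%, 11.2% and 19.6% in Ttr-low libraries (1.41, SE 0.22, edgeR adjusted p = 0.0181). The pair is head to head on chromosome 1, Col4a4 at 82448423 to 82586849 on the minus strand and Col4a3 at 82586921 to 82722059 on the plus strand, with 71 bases between the annotated starts. Both chains shifted the same way, and in both young replicate 4 had the lowest Ttr-high share and young replicate 2 the highest. Their shared promoter window is shown on the strand of Col4a4 (chr1:82586800-82587099, minus strand, RefSeq GRCm38.p6), with the bases between the annotated starts in capitals. It holds no match to either motif searched above.
Col4a4: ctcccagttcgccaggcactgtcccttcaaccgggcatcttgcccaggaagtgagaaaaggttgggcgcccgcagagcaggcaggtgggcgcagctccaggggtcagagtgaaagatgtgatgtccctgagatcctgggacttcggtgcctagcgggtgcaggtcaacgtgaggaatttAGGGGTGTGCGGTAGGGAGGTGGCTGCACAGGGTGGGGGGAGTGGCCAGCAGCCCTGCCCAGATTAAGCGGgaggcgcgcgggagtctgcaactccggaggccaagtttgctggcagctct

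Dsp, desmoplakin of desmosomes (chromosome 13, 38151294 to 38198577), passed the same test and was not called higher or lower between the sides. Its total level differed by -0.05 on the log2 scale, with overlapping sides, and dentate granule cells express it too. The BL6 share was 91.8%, 87.7%, 76.2% and 91.9% in Ttr-high libraries, against 99.8%, 99.6%, 98.9% and 99.7% in Ttr-low libraries, from 1718 to 5436 reads (-5.04, SE 0.32, edgeR adjusted p = 1.47e-06). Nearly all Ttr-low reads came from the BL6 copy, and young replicate 2 had the largest CAST share. Gm10129, a predicted gene that overlaps the start of Dsp, gave the same picture, with means of 85.4% in Ttr-high libraries and 99.8% in Ttr-low libraries (edgeR adjusted p = 0.0158), and its reads may be those of Dsp.

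**Figure D5:**
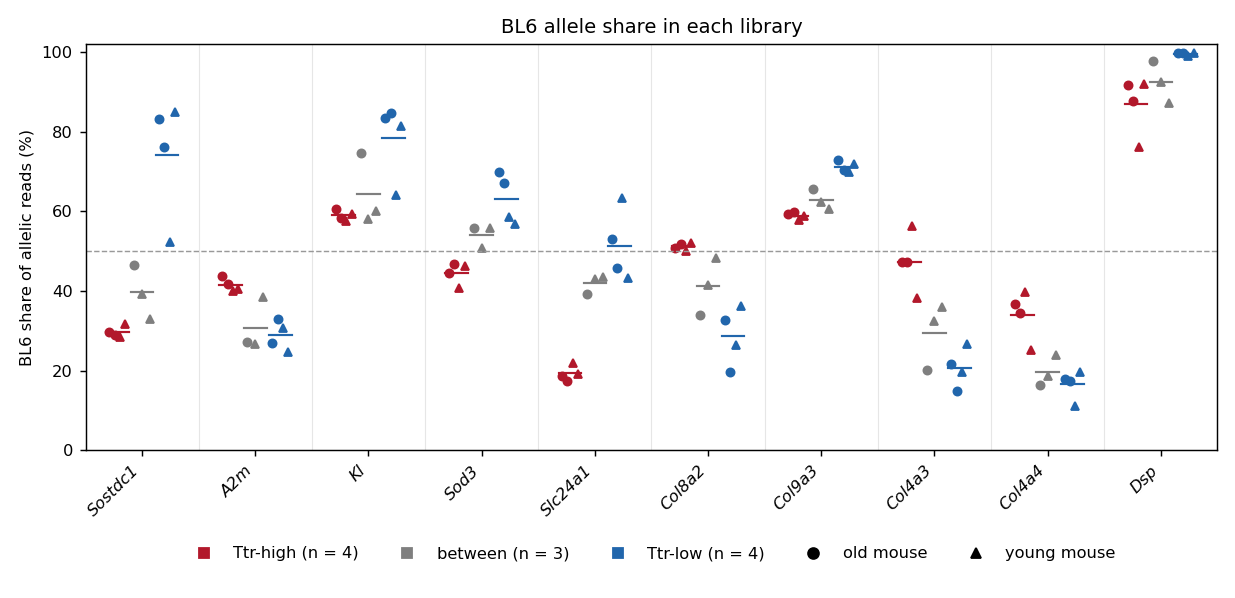
Share of allele-assigned reads from the BL6 copy, in percent, for 9 genes called higher and Dsp whose share differed between the sides, 1 point per library and bars for the mean of 4 Ttr-high, 3 intermediate and 4 Ttr-low libraries, with circles for old and triangles for young mice. The dashed line marks equal shares, and the sides do not overlap for any of the 10 genes.

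The genes outside the choroid plexus lists that passed this test were looked at after their values were seen. Chrna2, a nicotinic receptor subunit, averaged 38.1% in Ttr-high libraries and 60.8% in Ttr-low libraries (edgeR adjusted p = 0.00212). Igfbp7, an insulin-like growth factor binding protein of vessels, averaged 40.9% in Ttr-high libraries and 50.2% in Ttr-low libraries (edgeR adjusted p = 0.0257). Rps15a, Actn2, Fras1 and the imprinted gene Snrpn passed as well. Nearly all Snrpn reads were paternal, with at most 0.177% maternal reads in a Ttr-high library and 0.062% in a Ttr-low library. For Snrpn, Actn2 and Fras1 the shares of the sides overlapped. Actn2 had 39.0%, 52.5%, 57.8% and 41.5% in Ttr-high libraries, against 39.3% to 41.4% in Ttr-low libraries. Fras1 had 57.6%, 49.8%, 50.3% and 56.1% in Ttr-high libraries, against 57.3% to 62.7% in Ttr-low libraries. In both genes the striatum-rich pair lay furthest from the Ttr-low side. Striatum-rich young replicate 6 lay near that pair, at 57.8% for Actn2 and 50.8% for Fras1. The part of striatal tissue in these calls was not tested.

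Parent of origin was tested in the same fit. In Ttr-high libraries 209 of 24755 genes differed between the maternal and paternal copy, 0.844%, with 0.428% higher from the maternal and 0.416% from the paternal copy. Cdkn1c, a maternally expressed inhibitor of the cell cycle that was itself called higher (1.37, SE 0.37), had 90.4% maternal reads in old replicate 2 and 95.6% in young replicate 4, and 92.4% and 95.8% in old replicate 3 and young replicate 2 (log2 maternal over paternal 3.97, SE 0.20, edgeR adjusted p = 8.24e-10). Kcnq1, a potassium channel that pairs with Kcne2, was higher from the paternal copy (-1.92, SE 0.27, edgeR adjusted p = 0.000402) and was not called between the sides. Igf2 was slightly higher from the maternal copy in Ttr-high libraries (0.65, SE 0.11, edgeR adjusted p = 0.00461). Its maternal share was 60.9%, 59.8%, 58.8% and 64.8% in Ttr-high libraries, against 85.9%, 72.2%, 66.8% and 74.5% in Ttr-low libraries. Although the sides do not overlap, the term for maternal allele by side did not pass for Igf2 (-0.92, SE 0.18, edgeR adjusted p = 0.304). It passed for 0 of 24755 genes, with 1164 (4.7%) at an unadjusted p under 0.05 and 0 calls in DESeq2. Without Ttr-low young replicate 3 the adjusted p of Igf2 was 0.000102.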

How the data were processed

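Polyadenylated RNA of the hippocampus was sequenced with a directional kit, 1 library per mouse. Per the submitters' processing notes, bcl2fastq 2.20, Trim Galore 0.6.6, HISAT2 2.1.0, SAMtools 1.10 and featureCounts of Subread 2.0.0 were used with build GRCm38. The strand setting of the counting, the annotation release and the way reads were assigned to an allele are not given in the sources used here. Raw counts per gene, TPM values and allele-specific counts were deposited by the authors, and per the file headers each is a column per library. The allelic columns do not spell out the strains, and the first of each pair was taken as the BL6 allele. Total counts ran from 111.1 to 214.8 M and allelic counts from 39.7 to 76.9 M per library. Identifiers were matched to GENCODE M21 for 55141 of 55401 genes, and 107 symbols had more than 1 identifier. No library pair looked like a repeat deposit (smallest chi-square per gene 45.6).

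Counts were scaled by TMM to CPM (edgeR 4.0.16, limma 3.58.1, data.table package version 1.17.8, R 4.3.3) and log2(CPM + 0.25) was compared between Ttr-high and Ttr-low libraries as a description. A call needed no overlap and a difference of at least 1. A fold on this scale understates the change of low genes. Age, age by side and the allele terms were tested with edgeR quasi-likelihood fits, with Benjamini-Hochberg adjustment over all genes tested and a threshold of 0.05. The age fit held mother, side and age, and the allelic fit held a block for each mouse and needed a mean of 10 allelic reads. The sides were cut on the level of Ttr, which did not use the share of alleles within a library. DESeq2 1.42.0 was an alternative, with other scalings, filters, pseudocounts, the deposited TPM, and each library left out in turn. The fits were tested on simulated data. The remaining steps used Python 3.11.15, numpy 2.4.6, pandas 2.3.3, scipy 1.17.1 and matplotlib 3.10.9.

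The libraries, members and lists were chosen with earlier results of these data known. Named between the sides were the 20 genes with the largest difference of those called and averaging 1 CPM or more, every epithelium list member, and up to 4 members of each other list. In the tests these were up to 10 called genes of the choroid plexus set by smallest p, the 5 with the smallest p where none was called, and Igf2 and H19 in the allele terms. H19 was strongly maternal in Ttr-high libraries (log2 3.58). Some genes that meet this rule are not reported here. Other genes named were chosen after their values were seen. Intervals and read numbers cover counting error only.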

Additional observations from a re-analysis of the deposited data

Results flagged for a closer look

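Among 88 groups of 4 libraries checked for expression, 8 held a library far from the other 3, and chance gives about 1 in 20 groups. Young replicate 2 was that library in 6 of them. It was the highest Ttr-high library for Otx2 (7.17 CPM), Kcnj13 (14.1 CPM), Prlr (39.3 CPM), Enpp2 (953 CPM) and Perp (3.65 CPM), and the lowest for Msx1 (5.70 CPM). In Ttr-low libraries, Tmem72 was far highest in young replicate 3 (0.714 CPM) and Lmx1a in old replicate 4 (0.163 CPM). Among 36 groups of BL6 shares, 2 held such a library, both on the Ttr-low side. These were the 64.1% of Kl in young replicate 3 and the 99.1% of Gm10129 in young replicate 5.

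The BL6 over CAST ratio differed between the sides, by the interaction term of edgeR's quasi-likelihood test, in the following 10 genes of the choroid plexus lists or called higher. The ratio was lower in Ttr-high libraries for Dsp (-5.04 on the log2 scale), Sostdc1 (-2.86), Slc24a1 (-2.14), Kl (-1.44), Sod3 (-1.09) and Col9a3 (-0.79). It was higher in Ttr-high libraries for Col4a3 (1.77), Col4a4 (1.41), Col8a2 (1.33) and A2m (0.84).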

How the results depend on the processing

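The 130 genes called higher became 70 with a pseudocount of 1, 44 with a difference of at least 2 and 614 with no minimum, and 122 to 193 when 1 library was left out. The 0 genes called lower became 4 with the authors' TPM, 2 without the striatum-rich pair and 230 with no minimum, and 0 to 3 when 1 library was left out. The epithelium median was 1.22 with a pseudocount of 1. The 11 genes that changed with age became 364 in DESeq2, 47 with no filter, 95 with all 11 libraries and 33 without the striatum-rich pair. Leaving out 1 library gave 1 to 21, with 1 gene without old replicate 1, 2, 3 or 4 or young replicate 4, 4 without young replicate 3 and 21 without young replicate 5. In the epithelium list and genes called higher, DESeq2 called 5 with age, namely Slc13a4, Cdkn1c, Gm44732, Slc39a4 and Cldn1. Age by side had 3 calls in DESeq2, and 0 to 8 when 1 library was left out (8 without old replicate 2, 1 without young replicate 5). The 18 calls of BL6 allele by side ran from 10 without young replicate 3 to 31 without old replicate 3, and the 10 among genes called higher from 5 without young replicate 3 to 12, with 6 without old replicate 4. Dsp, Sostdc1, Col9a3 and Sod3 passed in each alternative run. Kl was lost in DESeq2 alone (adjusted p = 0.124), and Col8a2, Slc24a1, Col4a3, A2m and Col4a4 were lost when certain single libraries were left out. Maternal allele by side had 0 to 7 calls when 1 library was left out (7 without old replicate 3, 5 without young replicate 4, 5 without old replicate 1, 2 without young replicate 3). The maternal call of Igf2 was lost in DESeq2 (adjusted p = 1), without young replicate 2 (0.0535) and without young replicate 4 (0.104). None of the alternatives run reversed a result, and the cause of each move was not tested. The allele terms without the striatum-rich pair could not be fitted, since both remaining Ttr-high mice had a BL6 mother. No paired analysis was made, and the replicate numbers only name the mice in accession order. Each side held 1 mouse of each combination of age and mother, so mice on opposite sides could have been matched on both. Mice of the same age and mother on opposite sides are not tied to a litter by the labels, and the age test carries mother and side as terms. Low allelic depth limits Slc24a1 (34 to 49 reads), Col4a3 (74 to 107) and Sostdc1 (90 to 120) in Ttr-low libraries. Col8a2 and Col4a4 had 158 to 230 and 160 to 223 reads there.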
